A study of Mus musculus with 3 samples.

Results

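The nuclear genome encodes most subunits of the mitochondrial respiratory chain, and the chromatin-bound RNA of these genes was examined in mouse macrophages. Members were taken by gene symbol, as every gene whose symbol starts with Nduf (complex I), Uqcr (complex III), Cox4 to Cox8 (complex IV) or Atp5 (complex V, the ATP synthase) and that has a protein-coding transcript, with symbols marked as pseudogenes left out. This gave 90 gene identifiers with 89 distinct symbols, of 55536 annotated genes and 22028 protein-coding genes. They comprised 38 complex I subunits, 8 complex I assembly factors (Ndufaf genes), 8 complex III subunits, 18 complex IV subunits, 17 complex V subunits and the ATP synthase-associated gene Atp5s. Complexes were assigned by symbol alone, so Ndufa4 and Ndufa4l2 were counted with complex I, although their pair is taken up with complex IV below. Atp5o, a stalk subunit, has 2 identifiers, and the longer of them held no counts.

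The cells were bone-marrow-derived macrophages, phagocytes grown in culture from the marrow of C57BL/6J mice, and all had received 100 ng/ml of lipid A, the TLR4-activating part of bacterial endotoxin, for 30 min. RNA of the chromatin fraction, which is rich in transcripts still being made or spliced, was depleted of ribosomal RNA and sequenced as total RNA. The series forms a single group with 3 numbered biological replicates, all under 1 donor record, whose libraries were started from 1 µg (library 1), 250 ng (library 2) and 500 ng (library 3) of RNA. Whether they came from separate animals is not given, so the spread between them may be technical, and the amount of starting RNA cannot be told apart from any other difference between libraries. Untreated cells were not analysed here, so every value below is a level under lipid A and none is a response to it. In bulk RNA, fewer cells that express a gene and less RNA in each cell cannot be told apart.

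Complexes I, III and IV pass electrons from NADH and other donors to oxygen and pump protons across the inner mitochondrial membrane, and complex V uses the resulting gradient to make ATP. Their subunits come from both genomes, and the nuclear-encoded ones are translated in the cytosol and imported. Macrophages stimulated through TLR4 are known to move from oxidative phosphorylation towards glycolysis, and the chain itself takes part in their inflammatory signalling.

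Many reads of these genes were assigned by the authors to transcript models that keep an intron. The exon-intron borders below, 1 from each complex, show what separates such a model from the spliced mRNA. Each line gives the last 30 exon bases before an intron in the coding part of the gene, followed by the next 30 bases of the coding transcript (spliced) or of the retained-intron model (retained), with intron bases in capitals, from the GENCODE M21 transcripts on build mm10. The introns lie at chr19:4011273-4011345 on the minus strand (Ndufv1), chr9:108947480-108947597 on the plus strand (Uqcrc1), chr9:57529073-57530240 on the plus strand (Cox5a) and chr9:44913467-44914650 on the minus strand (Atp5l).
Ndufv1 spliced: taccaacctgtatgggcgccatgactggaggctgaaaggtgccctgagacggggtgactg
Ndufv1 retained: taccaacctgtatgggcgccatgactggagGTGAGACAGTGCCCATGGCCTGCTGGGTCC
Uqcrc1 spliced: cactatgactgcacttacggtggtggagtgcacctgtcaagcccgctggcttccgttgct
Uqcrc1 retained: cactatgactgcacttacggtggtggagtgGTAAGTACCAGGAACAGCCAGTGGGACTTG
Cox5a spliced: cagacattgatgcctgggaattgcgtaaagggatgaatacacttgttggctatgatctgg
Cox5a retained: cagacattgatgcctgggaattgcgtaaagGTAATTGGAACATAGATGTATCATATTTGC
Atp5l spliced: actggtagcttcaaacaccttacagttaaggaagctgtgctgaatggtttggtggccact
Atp5l retained: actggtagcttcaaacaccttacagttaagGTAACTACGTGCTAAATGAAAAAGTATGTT
Such a border could be drawn for 17 members, whose introns were 70 to 3899 nt long (median 521 nt). In all 17 the intron kept in the model starts with GT and ends with AG, the usual splice site letters, and the exon bases are equal in both transcripts.

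Depth limited what could be seen of these genes. Annotated genes had 16301150, 17033725 and 16205704 expected counts in libraries 1 to 3, and the 90 members together took 4384, 5423 and 5070 of them, or 0.0300% ± 0.0027 (SD, n = 3). As a check of the labelled cell type, all 8 macrophage markers were detected, with summed levels of 1266 to 1691 TPM (a level per transcript length, scaled to the same total in every library). None of 4 T cell, 4 B cell, 4 neutrophil and 4 adipocyte and muscle markers was detected, with summed levels of at most 1.62 TPM per list. Detection was called where the expected count averaged at least 10, and 56 members passed, beside 49.9% of all protein-coding genes. The members just inside this limit were Ndufaf2, Ndufb9 and Uqcrb with 30.3, 39.0 and 39.0 counts summed over the libraries, and those just outside were Atp5g2, Atp5k and Cox8a with 29.4, 28.0 and 27.0. Of the 34 members that were not detected, 25 had 7 to 29.4 counts in all, 4 had 1 to 4 and 5 had none. The median detected member stood at 2.98 TPM ± 0.81 (SD, n = 3), below the 4.94 ± 1.75 of the median detected protein-coding gene in every library, by 0.69 ± 0.16 on the log2 scale. TPM was lowest in library 1 and highest in library 3 for protein-coding genes at large (median of detected genes 3.48, 4.45 and 6.88 TPM), so levels are best compared within a library.

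**Figure D1:**
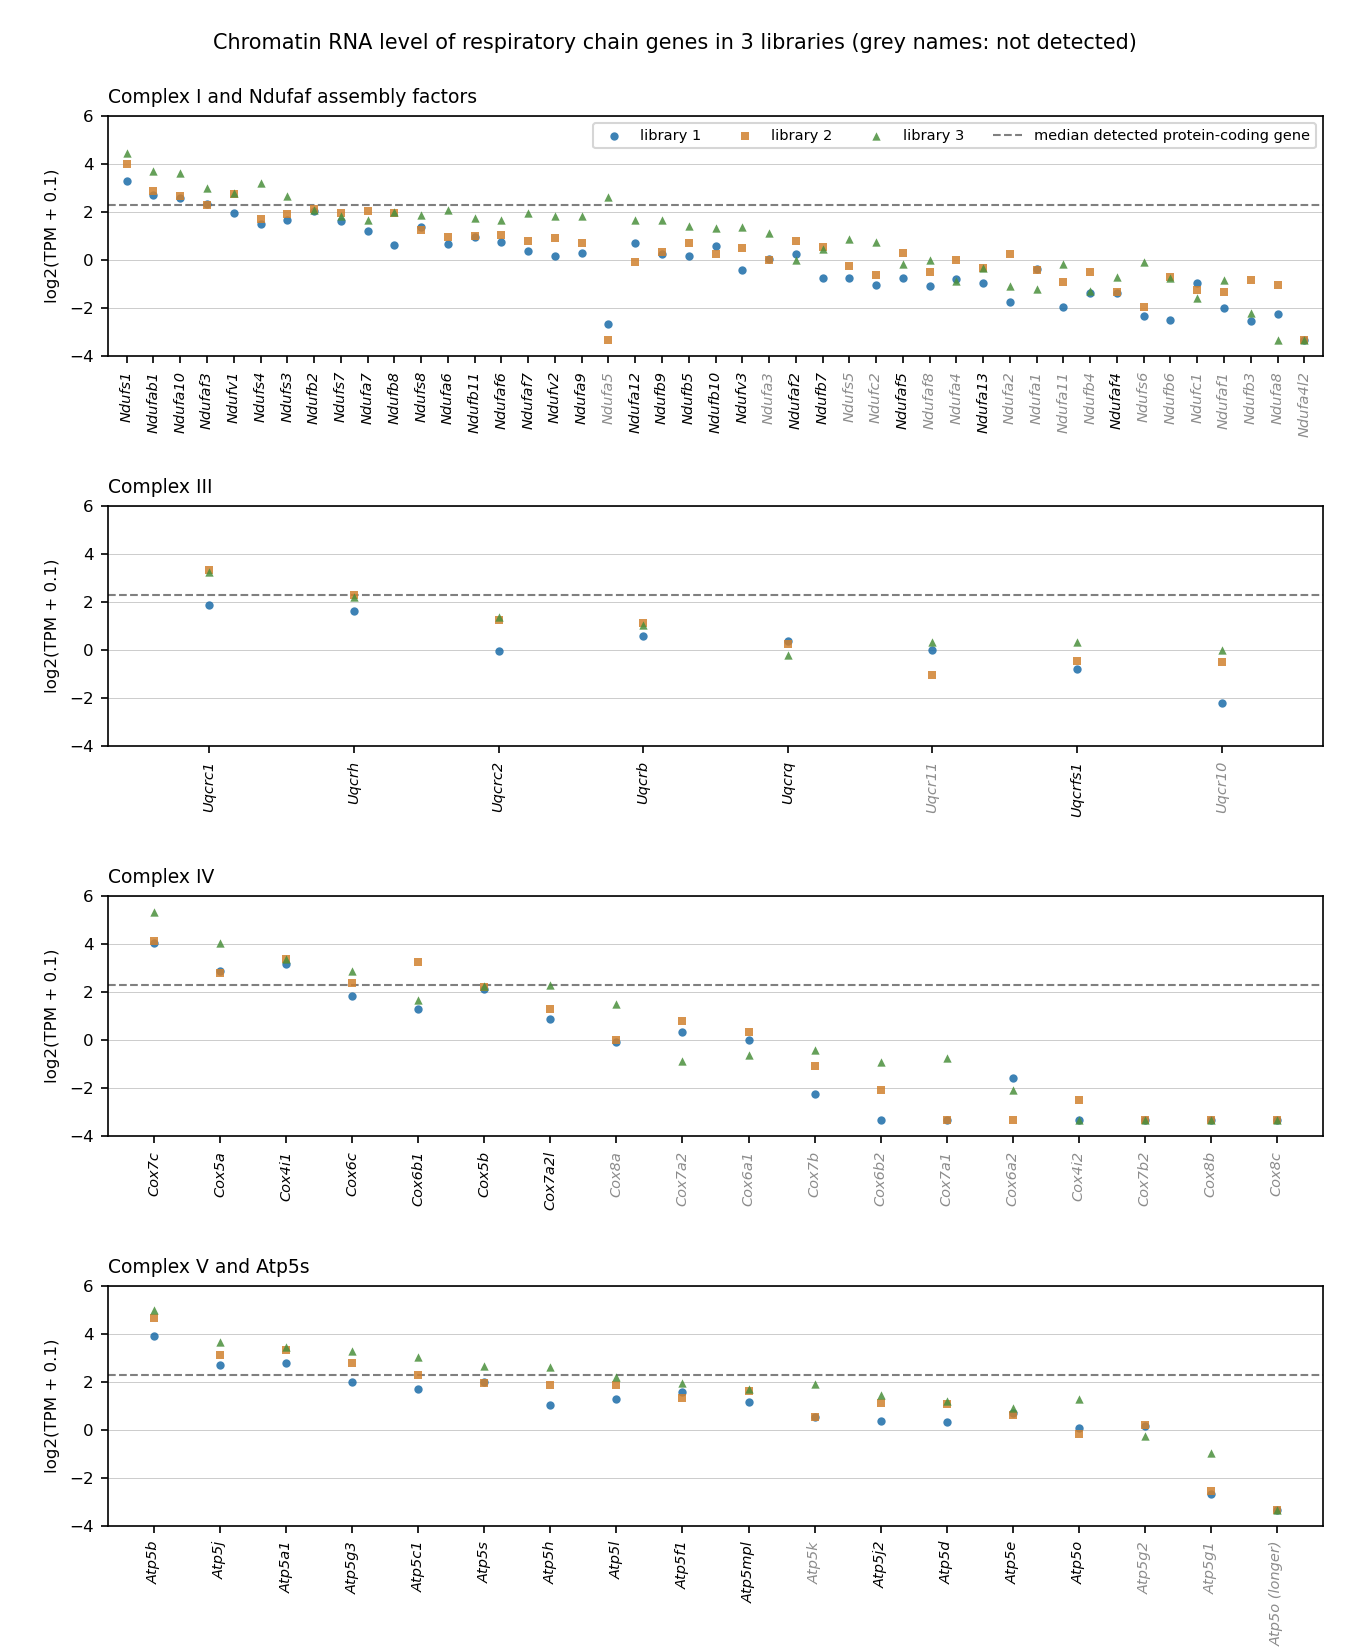
Level of 89 members in each library as log2(TPM + 0.1), ordered by mean TPM within the complexes; blue circles, orange squares and green triangles are libraries 1, 2 and 3, and the dashed line is the median of the detected protein-coding genes. Each complex runs from at least 1 member above the line (16 of all 90 members have a mean above the median of detected genes) to members far below it, those of complexes I, IV and V reaching the floor of -3.32, and grey names are members that were not detected.

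All 7 core subunits of complex I encoded in the nucleus, which carry the flavin and the iron-sulfur clusters along which electrons travel, were detected. Ndufs1, the largest subunit, with several iron-sulfur clusters, was at 9.60, 15.9 and 21.4 TPM in libraries 1 to 3 (mean 15.7 ± 5.92, SD, n = 3), from 516, 729 and 614 expected counts. Ndufv1, which binds NADH and the flavin, was at 3.80, 6.56 and 6.69 TPM. Ndufs1 exceeded Ndufv1 in each of the 3 libraries, by 1.42 ± 0.22 on the log2(TPM + 0.1) scale. A set of 4 lay closer together, with mean levels of 4.30 TPM for Ndufs3, 3.37 for Ndufs7, 2.76 for Ndufs8 and 2.09 for Ndufv2. Among these, Ndufs3 and Ndufs7 (difference 0.28 ± 0.50 in log2 TPM) and Ndufs7 and Ndufs8 (0.30 ± 0.38) changed order between libraries and did not differ beyond their spread. As a group the core subunits had a median of 4.33 TPM ± 1.70, and the 31 accessory subunits, which surround the core and help to assemble it, had 1.21 ± 0.76, of which 16 were detected. The core genes also had more exon sequence (median 2178 against 1251 nt), and the part of length in this difference was not tested.

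The accessory subunits covered the whole range. Ndufab1, the mitochondrial acyl carrier protein, was at 6.33, 7.12 and 12.8 TPM and Ndufa10 at 5.82, 6.29 and 12.1 TPM, so both lay above the median detected gene in their means. Ndufs4, whose loss causes a mitochondrial encephalopathy, was at 2.72, 3.12 and 8.94 TPM, from 65, 57 and 83 counts. Library 3 was the highest on both measures, but by less in counts. Ndufb2, a small subunit of the membrane arm, was at 4.04, 4.19 and 4.07 TPM, from 127, 112 and 142 counts. At the lower end, Ndufb3, Ndufc1 and Ndufa8 had means of 0.22 TPM ± 0.21, 0.32 ± 0.09 and 0.17 ± 0.20 from 8, 16 and 8 counts in all, and Ndufa4l2, a hypoxia-induced relative of Ndufa4, had none. Ndufa5, with 1, 0 and 12 counts, had a mean of 2.03 TPM that rested on library 3 and was not called detected. These low values carry few counts, and differences among them are not resolved at this depth.

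Of the 8 assembly factors, which build complex I but do not stay in it, 6 were detected, with a median of 1.02 TPM ± 0.30 over all 8. Ndufaf3 led them at 4.84, 4.76 and 7.74 TPM. Ndufaf6 and Ndufaf7, the latter a methyltransferase, followed with means of 2.19 ± 0.75 and 2.18 ± 1.37 TPM and did not differ beyond their spread. Ndufaf1 and Ndufaf8 were not detected, with 21 counts each.

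Complex III had 6 of its 8 members detected. Uqcrc1, a core protein of the matrix side, was at 3.57, 9.90 and 9.33 TPM (mean 7.60 ± 3.50), with library 1 below the others. Uqcrh, the hinge protein near cytochrome c1, was at 2.95, 4.75 and 4.47 TPM. Uqcrc2, the partner of Uqcrc1, was lower, at 0.87, 2.27 and 2.50 TPM, and the small subunits Uqcrb and Uqcrq had means of 1.80 ± 0.37 and 1.01 ± 0.21 TPM. Uqcrfs1, the Rieske iron-sulfur protein that hands electrons to cytochrome c1, stood at 0.75 TPM ± 0.35 from 15, 17 and 21 counts. The small subunits Uqcr11 and Uqcr10 had 12 and 7 counts in all and were not detected. Cyc1, the cytochrome c1 of the same complex, lies outside the symbol rule and was at 2.60 TPM ± 0.56.

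Complex IV split into 7 detected members and 11 that were not. Cox7c, a small subunit, had the highest mean of all 90 members, at 16.2, 17.3 and 40.1 TPM (mean 24.5 ± 13.5), and library 3 was again the highest. Its lead over Atp5b of complex V was not beyond the spread, since Atp5b was higher in library 2. Cox5a, which binds a regulator of the enzyme on its matrix side, was at 7.17, 6.70 and 16.3 TPM, from 176, 129 and 223 counts. Cox4i1, the largest nuclear-encoded subunit, was at 8.85, 10.3 and 10.2 TPM, from 97, 95 and 72 counts. Cox6c, Cox6b1 and Cox5b had means of 5.20 ± 1.83, 4.95 ± 3.87 and 4.46 ± 0.19 TPM. The wide error of Cox6b1, which clamps the dimer on the outer side, came from library 2, with 9.40 TPM and 35 counts against 2.36 and 3.08 TPM and 16 and 12 counts in libraries 1 and 3. Cox7a2l was at 2.92 TPM ± 1.60.

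Several complex IV subunits exist as a widely expressed and a tissue-restricted isoform, and 8 such pairs were compared within each library. Ndufa4 and Ndufa4l2, counted above with complex I, were included. None of the 8 restricted isoforms was detected, and Cox7b2, Cox8b, Cox8c and Ndufa4l2 had no count in any library. In the second deposited quantification, estimated straight from the reads, Cox7a1 and Cox4i2 did pass the same limit, with means of 36 and 18 counts. In 7 of the 8 pairs the widely expressed isoform was higher in all 3 libraries. Cox4i1 exceeded Cox4i2, the lung and hypoxia isoform, with 264 counts against 1, a ratio per length of 328 (95% exact counting interval 58.3 to 12994). The second quantification put this pair much closer, at 36.9 and 1.25 TPM, and the log2(TPM + 0.1) difference was 4.95 in place of 6.34 ± 0.43. Cox6b1 exceeded the testis isoform Cox6b2 by a ratio of 27.5 (9.00 to 137), from 63 and 3 counts, but posterior mean TPM, another of the authors' estimates, gave 5.97 and 1.87. In the second quantification this pair was at 7.16 and 0.23 TPM, with a log2 difference of 4.62 in place of 4.17 ± 1.42. Cox6a1 exceeded the heart and muscle isoform Cox6a2 by 7.09 (2.41 to 28.3), from 22 and 4 counts. The intervals cover counting error only. The second quantification put the ratio of Cox4i1 to Cox4i2 below its interval, and posterior mean TPM did so for Cox6b1 to Cox6b2. For Cox6b1 and Cox6b2 the second quantification stayed inside the interval.

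For the isoforms listed at 0 no ratio is given, since a listed 0 need not mean that the RNA is absent. By posterior mean TPM, Cox8a was at 1.66 against 0.31 for Cox8b, a brown fat and muscle isoform, and 0.19 for Cox8c, and Ndufa4 at 1.36 against 0.40 for Ndufa4l2. Cox7b was at 3.50 against 0.14 for Cox7b2 on the same measure. Such values need not rest on reads, since Cox8c and Ndufa4l2 had no count in either quantification. Posterior mean TPM can also stand far from the main estimate, as for Ndufa3, with 26 counts in all, at 18.75 against 1.31 TPM. The widely expressed partners were themselves scarce: only Cox4i1 and Cox6b1 of the 7 were detected, and Cox8a, Cox7a2, Cox6a1, Cox7b and Ndufa4 had 27, 23, 22, 16 and 15 counts in all. The exception among the pairs was Cox7a2 over the heart and muscle isoform Cox7a1, which was reversed in library 3 (3 counts against 2, and -0.13 on the log2(TPM + 0.1) scale), with 23 against 2 counts in all and a ratio of 7.91 (1.96 to 69.3). In the second quantification Cox7a2 and Cox7a1 were at 9.87 and 4.47 TPM, with Cox7a2 higher in each library and a log2 difference of 1.20 in place of 2.53 ± 2.32. Flipping the signs of the 3 library differences in every way (exact permutation test, two-sided) gave p = 0.25 for the 7 concordant pairs (Benjamini-Hochberg adjusted p = 0.286 over 8 pairs) and p = 0.5 for Cox7a2 and Cox7a1. With 3 libraries the smallest p is 0.25, so the design cannot reach 0.05. Cox8a enters 2 of the pairs.

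**Figure D2:**
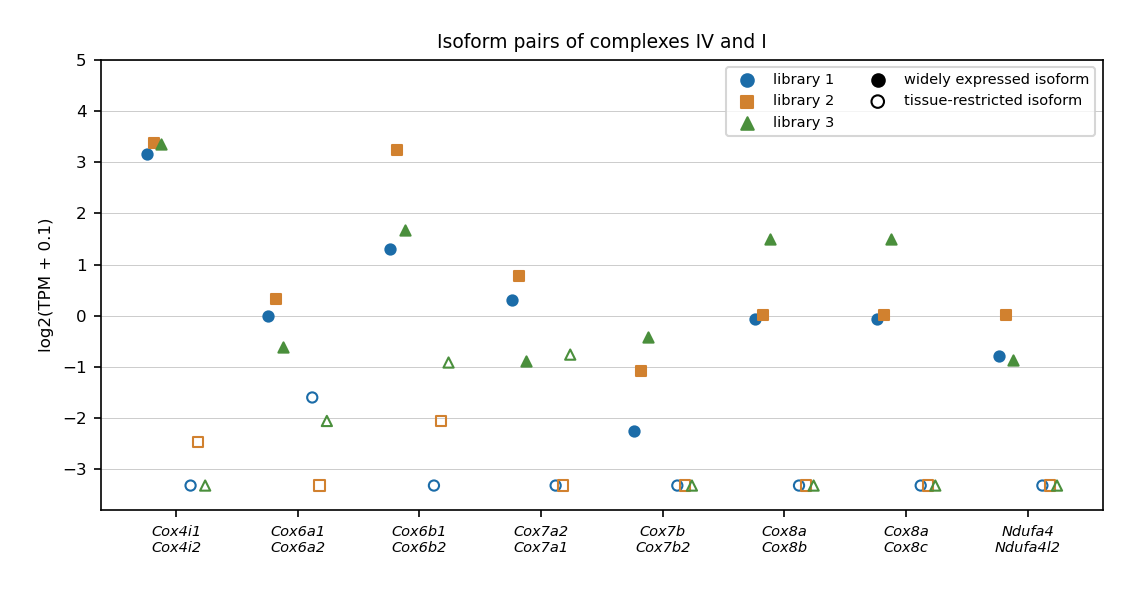
Levels of the isoform pairs in each library as log2(TPM + 0.1), with filled symbols for the widely expressed and open symbols for the tissue-restricted isoform. Open symbols lie at or near the floor of -3.32 in most libraries, and the filled and open symbols meet only for Cox7a2 and Cox7a1 in library 3.

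Complex V, the ATP synthase, had 13 of 17 members detected, including all 5 subunits of the F1 head and central stalk. Atp5b, the catalytic beta subunit, was at 14.8, 25.3 and 31.8 TPM (mean 23.97 ± 8.62) from 383, 514 and 345 counts. Atp5a1, the alpha subunit, which alternates with beta in the head, was at 6.75, 9.86 and 10.9 TPM, and Atp5c1, the gamma subunit of the rotating stalk, at 3.19, 4.80 and 8.16 TPM. In each library Atp5b exceeded Atp5a1 and Atp5a1 exceeded Atp5c1, by 1.33 ± 0.21 and 0.83 ± 0.36 in log2 TPM. Atp5d and Atp5e, the delta and epsilon subunits, were lower, at 1.79 ± 0.57 and 1.58 ± 0.19 TPM, and did not differ beyond their spread (0.12 ± 0.46 in log2 TPM, with the order reversed in library 1).

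The peripheral stalk and membrane part held 12 identifiers, 8 of them detected. Atp5j (F6), a stalk subunit, was at 6.39, 8.66 and 12.6 TPM, Atp5h (d) had a mean of 3.86 ± 2.06 TPM, and Atp5f1 (b) 3.02 ± 0.71. Atp5o, the stalk protein that confers oligomycin sensitivity, was at 1.36 TPM ± 0.84 under its shorter identifier. Of the membrane subunits, Atp5l (g) was at 2.32, 3.55 and 4.54 TPM, Atp5mpl at 2.72 ± 0.53, Atp5j2 (f) at 1.97 ± 0.70 and Atp5k (e), with 28 counts and not detected, at 2.11 ± 1.30 TPM. Atp5s, a coupling factor rather than a subunit, was at 3.85, 3.80 and 6.24 TPM.

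The c subunit, which forms the rotating ring, comes from 3 genes that encode the same mature protein. Atp5g3 was at 3.91, 6.68 and 9.72 TPM, from 63, 92 and 89 counts. Atp5g2 was at 1.01, 1.06 and 0.75 TPM, and Atp5g1 at 0.06, 0.07 and 0.41 TPM. The order Atp5g3, Atp5g2, Atp5g1 held in each library, with differences of 2.64 ± 0.84 and 2.10 ± 1.18 in log2 TPM, although Atp5g2 and Atp5g1 had 29.4 and 26 counts in all and neither was detected. In library 3 Atp5g1 had the more counts of these, 13 against 4.42, so that the order there came from the length correction. In the second quantification Atp5g2 was at 0.77, 0.81 and 1.92 TPM and Atp5g1 at 0.54, 0.53 and 1.80, which kept the order with a far smaller gap. Reads of such close relatives may have been shared between them in counting.

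Set side by side, the complexes had medians of 2.66 TPM ± 0.85 (V, 17 genes), 1.68 ± 0.96 (I, 38 genes), 1.39 ± 0.30 (III, 8 genes) and 0.84 ± 0.22 (IV, 18 genes), beside 0.29 ± 0.12 for all protein-coding genes. Complex V was the highest and complex IV the lowest in all 3 libraries, while complexes I and III changed places in library 3. The low place of complex IV did not hold in the other deposited estimates: the medians of complexes I, III and IV were 1.44, 1.51 and 1.93 in log2(TPM + 0.1) in the second quantification, and 1.04, 0.96 and 1.02 by posterior mean TPM, with complex V the highest in both (2.23 and 1.79). Posterior mean TPM gives values also to members without counts, so its medians include values that no counts back. On the log2(TPM + 0.1) scale, complex V exceeded complex I by 0.89, 0.90 and 0.37, complex III by 0.87, 0.65 and 1.20, and complex IV by 1.09, 1.15 and 2.41. Its place also moved with the genes counted: without the restricted isoforms its median over 11 genes was 3.83 TPM ± 1.27, above that of complex V by 0.49 in log2. Among detected members alone, the medians were 6.02 ± 1.55 TPM for 7 complex IV genes, 3.47 ± 1.11 for 13 complex V genes, 2.53 ± 0.86 for 23 complex I genes and 1.89 ± 0.53 for 6 complex III genes. These are descriptions with no test, since the genes of a complex are not replicates. The complexes also differed in median exon length, with 1972 nt (V), 1532 (I), 1300 (III) and 866 (IV). Across the 90 members TPM rose with exon length (Spearman correlation 0.59), and the part of length in the order of complexes was not tested. By level, 57 members had a mean of at least 1 TPM, beside 41.5% of protein-coding genes, 16 had at least 5 TPM, beside 24.9%, and 5 had at least 10 TPM (among them Cox7c, Atp5b, Ndufs1 and Cox5a), beside 16.6%.

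**Figure D3:**
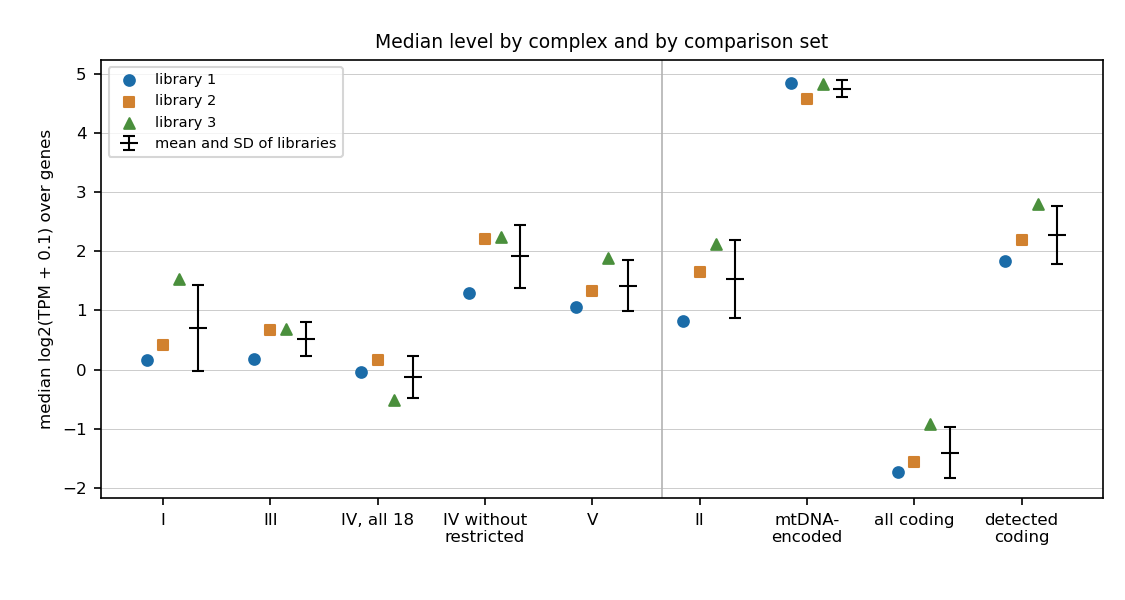
Median log2(TPM + 0.1) per library over the genes of each complex, with complex IV also without its restricted isoforms, and over complex II, the subunits encoded in mitochondrial DNA, all protein-coding genes and the detected ones; black bars are the mean and SD of the 3 libraries. Complex IV moves from the lowest of the nuclear-encoded complexes (-0.13) to above complex V (1.91 against 1.42) when the restricted isoforms are left out, all in the first quantification.

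A large part of the reads of these genes lay on models that keep an intron. Over all members, 41.3% ± 1.74 (SD, n = 3) of expected counts were assigned to models of the retained-intron class, beside 22.3% ± 1.26 over all protein-coding genes, and 53.4% ± 1.40 to protein-coding models, beside 70.8% ± 1.25. Since a gene can only enter through a model that exists, the comparison was also made within the 39 detected members that have one: there the share was 50.3% ± 2.02, beside 30.1% ± 1.99 in 6777 detected protein-coding genes with such a model. For the median gene it was 50.5% ± 2.49 in members and 23.2% ± 0.44 in protein-coding genes, and 31 of the 39 members lay above the latter value. No test was made of these shares. Reads from RNA whose splicing was unfinished and from stable transcripts that keep the intron cannot be told apart in these tables.

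Single genes differed widely in this share. Atp5l had 98.3% ± 1.56 of its counts on such models, nearly all on Atp5l-204 (287, 326 and 282 counts), a model of 6310 nt that keeps the intron shown above. Cox5a had 93.4% ± 2.59, with 130, 88.3 and 161 counts on Cox5a-202 and 8.73, 6.85 and 21.4 on its coding transcript Cox5a-201. Ndufa6 and Ndufa7, accessory subunits of complex I, had 92.4% ± 13.1 and 90.2% ± 9.88. Ndufv1 had 31.2% ± 3.34 and Uqcrc1 had 45.0% ± 4.74. At the other end, Atp5a1 had 12.0% ± 2.02, Ndufs4 8.87% ± 4.54, Ndufaf5 1.45% ± 2.51 and Uqcrc2 0.71% ± 1.23 although each has such a model. Cox7c, Atp5c1, Atp5g3, Ndufs3, Ndufs8 and Ndufv2, for which the annotation holds no retained-intron model, were at 0 by construction.

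**Figure D4:**
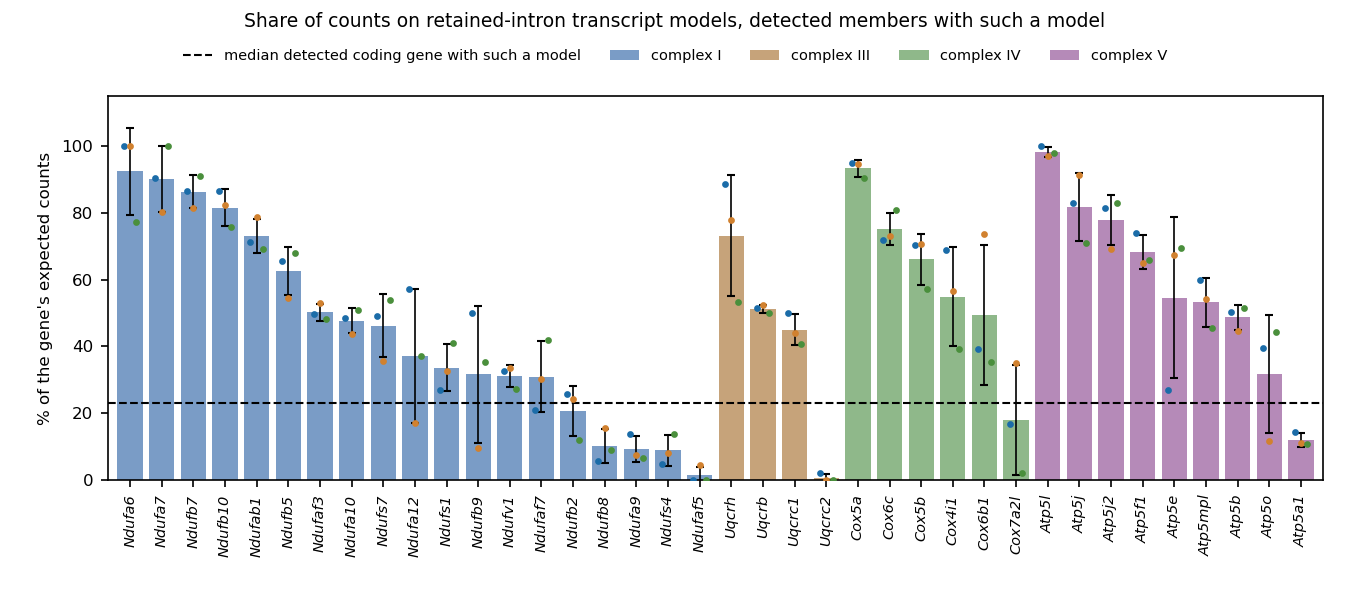
Share of each gene's expected counts that was assigned to retained-intron models, for 38 detected members with such a model; bars are means over 3 libraries, error bars the SD and dots the libraries (blue 1, orange 2, green 3), and the dashed line at 23.2% is the median detected protein-coding gene with such a model. Of the bars, 30 reach above the line, and each complex spans from below it to at least 73.2%.

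The transcript with the highest mean TPM, a measure that corrects for the length of the model, was not a protein-coding one in 24 of the 56 detected members, beside 29.8% of detected protein-coding genes. It was a retained-intron model in 21 members, beside 21.3%, and among genes with such a model in 21 of 39, beside 34.6%. By complex, the main transcript was noncoding in 11 of 23 detected subunits of complex I, 1 of 6 of complex III, 3 of 7 of complex IV, 6 of 13 of complex V and 3 of 6 assembly factors. Among the 21 were Ndufs4, Ndufs7, Ndufab1, Ndufa6, Ndufa7, Ndufa10, Ndufa12, Ndufb2, Ndufb10, Ndufaf3, Ndufaf7, Uqcrh, Cox5a, Cox5b, Cox6b1, Atp5j, Atp5l, Atp5f1, Atp5mpl and Atp5j2. The model that leads in TPM need not hold most counts. Shares of counts on retained-intron models in the 21 ran from 8.87% (Ndufs4) and 20.6% (Ndufb2) to 98.3% (Atp5l). In Ndufa10 the leading model, of 513 nt, had a mean of 19.0 counts, against 57.6 on a coding transcript of 2020 nt. In Ndufv3, Ndufaf4 and Atp5g3 the main transcript was a processed transcript, a noncoding class without a retained intron label. The core subunits Ndufs1, Ndufv1, Ndufv2, Ndufs3 and Ndufs8 and the F1 subunits kept a protein-coding main transcript.

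Between libraries, members were compared on a scale of log2 CPM (counts scaled to the library total) after TMM scaling, which removes the TPM shift. The median detected member ranged over 0.53 between its lowest and highest library, and 4 of 56 ranged over more than 1, beside 13.5% of detected protein-coding genes. These 4 were Cox6b1 (1.62), Uqcrc2 (1.10), Uqcrc1 (1.08) and the assembly factor Ndufaf5 (1.02), and next came Ndufa7 (0.89). All 4 were highest in library 2. Uqcrc1 had 107, 242 and 146 counts and Uqcrc2 37, 85.0 and 62.7, so that both core proteins of complex III were lowest in library 1 and highest in library 2. Of all detected members 27 were highest in library 2, beside 39.0% of detected protein-coding genes, and 20 in library 3, beside 33.9%. In complex V 11 of 13 were highest in library 2 and none in library 3, while in complex I 7 of 23 were highest in library 2 and 12 in library 3. Some of the leads in complex V were near ties, and none of the 13 ranged over more than 1. Atp5c1 was at 2.79 log2 CPM in both libraries 2 and 3, and Atp5mpl at 0.008 in both libraries 1 and 2. Library 2 also had the smallest amount of starting RNA, and its part in these values was not tested. The order of levels was stable, with Spearman correlations of TPM across the 90 members of 0.96, 0.90 and 0.88 between the library pairs 1 and 2, 1 and 3, and 2 and 3. These run across genes, which share length and annotation, and are given as a description.

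The second deposited quantification changed the level of some members greatly. In it 73 members reached 10 counts, beside 66.6% of protein-coding genes, among them all 56 detected before and 17 others. The median detected member was higher by 0.63 in log2 TPM, beside 0.48 for detected protein-coding genes. Of the detected members 14 were higher by more than 1 in log2, beside 22.5%, and none was lower by more than 1, beside 0.155%.

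The largest difference was in Cox7a1, a restricted isoform, from 0.16 to 4.47 TPM (2 counts in all in the former and a mean of 36.0 in the latter). Ndufb2 was at 4.10 and 52.9 TPM: 1 of its retained-intron models held 22, 20 and 15 counts in the former and 595, 3394 and 502 in the latter, with library 2 far above the others. Cox4i2 was at 0.03 and 1.25 TPM, Cox7a2 at 1.06 and 9.87 and Cox7b at 0.38 and 3.74. The single largest levels changed less, with Atp5b at 23.97 and 24.06 TPM and Cox7c at 24.5 and 45.2 TPM. With this quantification the widely expressed isoform was higher in every library in all 8 pairs.

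**Figure D5:**
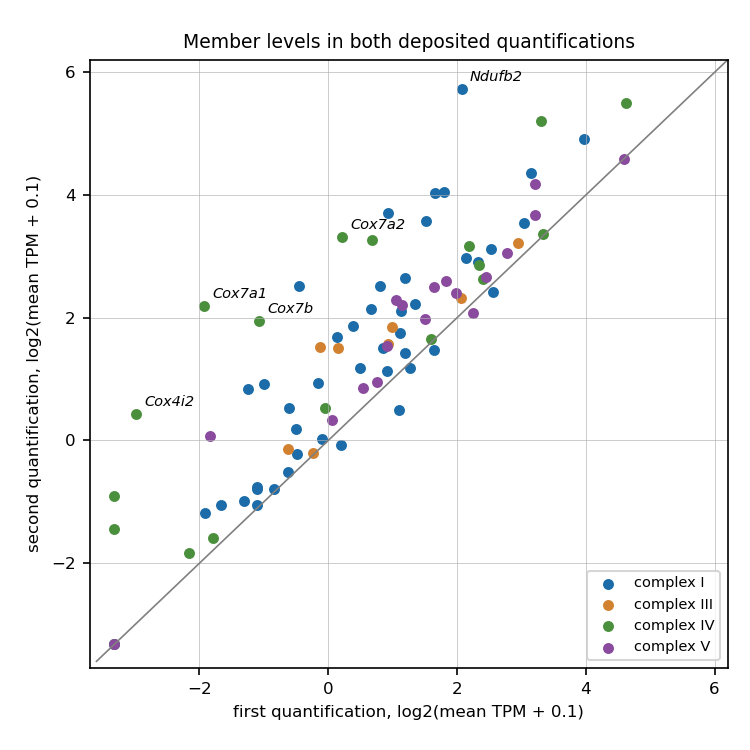
Mean level of 89 members over 3 libraries in the first (x axis) and the second (y axis) deposited quantification, both as log2(mean TPM + 0.1), coloured by complex; the line marks equality. Most points lie on or above the line, and the 5 named genes are those farthest from it, with Ndufb2 the only detected member among them.

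Neighbouring genes bear on these values, because the sources used here do not say whether counting used strand. Of the 56 detected members 24 overlap a gene on the other strand, beside 46.0% of detected protein-coding genes, and in 10 that gene had more counts, beside 11.1%. Cox6c overlaps Vps13b, with means of 90.6 against 15645 counts, and Ndufb2 overlaps Braf, a kinase gene, with 127 against 1851. Atp5j is paired head to head with Gabpa, with 80.5 against 274 counts, and Ndufb11 meets Rbm10 with 33.7 against 288. Ndufaf3, Cox4i1, Atp5f1, Atp5d, Ndufaf2 and Uqcrb also have a partner with more counts, and for these 10 genes the levels are uncertain. Cox5a overlaps the noncoding gene Gm26631, with 176 against 159 counts. On the same strand Cox4i1 shares its locus with Gm20388, Ndufb2 with Gm42420 and Cox7c with Gm22574. Of the 270 member values, 229 were whole counts within 0.005, and 19 members had a value that was not whole, as where reads are split between loci.

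Letters that resemble binding sites of known respiratory gene regulators were searched in the RefSeq promoter table (GRCm38.p6), which has windows from 250 bases before to 50 after a gene's start. It held 78 windows for 73 of the 89 symbols, with a median GC content of 57.5%, beside 56.3% for protein-coding genes. Motifs were searched on both strands. The NRF1 motif, given by name and seen in capitals in the stretches of Atp5h and Atp5k below, was found in 18 of 78 member windows, or 23.1%, beside 4.60% of all 32851 windows and 6.38% of protein-coding ones. CCGGAAG (the ETS family, which includes GABPA) was found in 16, or 20.5%, beside 8.86% and 11.6%, and AAGATGGC (YY1) in 11, or 14.1%, beside 2.75% and 3.05%. GGGCGG (the SP family) was in 43.6%, beside 35.7% and 46.2%, TCAAGGTCA (the ERR family) in 1 window, that of Atp5g3, and TATAAA in 10.3%, beside 13.6% and 12.6%. Matches of 2 motifs overlapped in 1 member window, that of Ndufs3.

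A match is a description of letters, not of binding, and none of these shares was tested. Members with the NRF1 letters did not stand higher: 8 of 17 were detected and their median was 1.00 TPM, against 37 of 56 and 1.80 TPM without. For the ETS letters the medians were 1.85 TPM with and 1.70 without, and for the YY1 letters 2.05 and 1.61. Stretches of 4 complex V promoters are shown with the letters in capitals and 25 bases on each side, all on the minus strand of GRCm38.p6, as examples of each of these 3 motifs: chr16:84835032-84835089 (Atp5j, YY1), chr11:115420026-115420085 (Atp5h, NRF1), chr9:44920923-44920979 (Atp5l, ETS) and chr5:108434415-108434474 (Atp5k, NRF1).
Atp5j: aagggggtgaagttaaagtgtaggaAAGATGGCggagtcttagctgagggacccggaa
Atp5h: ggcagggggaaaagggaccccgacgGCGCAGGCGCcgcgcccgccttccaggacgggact
Atp5l: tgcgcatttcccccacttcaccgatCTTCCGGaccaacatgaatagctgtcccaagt
Atp5k: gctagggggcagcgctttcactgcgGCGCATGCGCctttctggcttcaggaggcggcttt
The letters start 88, 141, 212 and 50 bases before the RefSeq start that the window belongs to. Atp5j has a pair of windows, and the other, at the start of the GENCODE gene, holds the SP letters and neither YY1 nor ETS letters. In Atp5l they are the reverse complement of CCGGAAG, and its window holds them again nearer the start. The windows shown for Atp5j, Atp5h and Atp5k also hold the ETS letters. Windows were taken in order of mean TPM where the letters lay at least 25 bases inside the 250 bases before the start. Higher members whose letters lay elsewhere, such as Uqcrc1 and Atp5g3, were passed over, and Atp5k was not called detected.

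The rest of the pathway stood as follows. All 4 complex II genes, which link the citric acid cycle to the chain, were detected, led by the flavoprotein Sdha at 17.9, 23.5 and 37.5 TPM, with Sdhb at 6.70 ± 2.94 and Sdhc at 1.09 ± 0.48 TPM. Somatic cytochrome c, Cycs, was at 1.57 TPM ± 0.50, and the testis form Cyct had no counts. Of 22 assembly factors outside the symbol rule 16 were detected, with the highest levels for Cox16 (11.5 ± 2.90), Surf1 (10.8 ± 3.52) and Uqcc1 (9.65 ± 3.03), and Cox11, Cox20, Sco1, Sco2, Uqcc2 and Uqcc3 were not. Of 9 regulators of mitochondrial biogenesis 8 were detected, led by Esrra (16.5 ± 3.80 TPM), Nrf1 (14.2 ± 5.72) and Gabpb1 (12.5 ± 5.65), and the coactivator Ppargc1a was not, with 1, 3 and 2 counts. Its relative Pprc1 was at 11.6 TPM ± 2.51.

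The 13 chain subunits encoded in mitochondrial DNA had a median of 26.9 TPM ± 2.65, above every nuclear-encoded complex in each library. Chromatin fractions can carry mitochondrial transcripts along, and their part in these values was not tested. Of these genes 11 were detected, led by mt-Co1 at 295, 173 and 134 TPM. The next were mt-Atp8 at 97.3 ± 24.7 TPM and mt-Nd6 at 45.4 ± 11.0. Listed values of 0 in every library were found for mt-Co2 and mt-Nd3, yet these held 819, 166 and 463 and 189, 117 and 71 counts in the other deposited quantification. A listed 0 in the main table is therefore not read as absence of the RNA, and this holds for the 5 members at 0 as well, beside 31.6% of protein-coding genes at 0. Of those 5, Cox7b2 and Cox8b had means of 3 and 2.33 counts in the other quantification, and Cox8c, Ndufa4l2 and the longer Atp5o identifier none.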

How the data were processed

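Gene and transcript tables of 3 libraries were used. They rest on mm10 and GENCODE M21, per the deposited file notes. Expected counts (estimated reads, not normalised), TPM and posterior mean TPM by the authors stand in a gene table and a transcript table, per the file headers, and come from an alignment to transcripts, per the file notes. The percent of a gene's abundance in each transcript, also deposited, was not used. The second transcript table holds the authors' estimated counts and TPM made straight from the reads, and was summed by gene. For aligner, quantifier, versions and strand the sources used here give nothing.

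The members, lists and motifs were chosen with earlier results of these data known. Members were matched by gene identifier. Counts, medians and shares cover every member, but 1 member is not reported here by name and is left out of the figures. Levels are TPM, on a log scale log2(TPM + 0.1), as mean ± SD over libraries. Levels in log2 CPM used edgeR 4.0.16 (R 4.3.3) TMM scaling of expected counts rounded to whole numbers, with a prior count of 0.5. Biotypes came from the second transcript table. Isoform pairs were tested by an exact permutation of signs over libraries, two-sided, with Benjamini-Hochberg adjustment. Genes named were up to 6 highest and 4 lowest members per complex, isoform pairs, Atp5g genes, complex I core subunits, detected members with a noncoding main transcript, up to 5 members with the largest difference between quantifications and with the widest range, and from each pathway list up to 3 highest and any undetected gene; the remaining names, members at the detection limit, at the ends of the retained-intron share or next to an overlapping gene among them, were chosen after their values were seen. Alternatives were other pseudocounts, quantification, estimator, length correction, TPM scale, summary, filter and member assignment, and leaving out each library. At the library totals, 16205704 to 17033725 counts, the limit for a gene at 0 (3 counts, 95% confidence, counting error only) is 0.18 to 0.19 CPM. Figures used matplotlib 3.10.9 and other steps scipy 1.17.1, pandas 2.3.3 and numpy 2.4.6 under Python 3.11.15.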

Additional observations from a re-analysis of the deposited data

How the results depend on the processing

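Complex V stayed above complexes I and III under every alternative run, by 0.44 to 0.89 and by 0.59 to 1.04 in log2, and complex IV stayed below complex V except where its low members were left out. The difference of complex IV minus complex V, -1.55, became 0.80 with detected members only and 0.49 without the restricted isoforms, an alternative added after seeing the data, and shrank to -0.30 in the second quantification and -0.77 with posterior mean TPM. The cause of the last changes was not tested. The difference of complex III minus complex V was -0.61 with a pseudocount of 1 and -0.59 with means over members.

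The medians themselves moved with the scale, and complex IV was no longer the lowest in the second quantification, with posterior mean TPM, with detected members only or without the restricted isoforms. In the second quantification those of complexes I, III, IV and V were 1.44, 1.51, 1.93 and 2.23 in log2, and over genes of at least 300 nt 2.19, 2.00, 1.32 and 2.94. Complexes III and IV had 1.23 and 0.87 with a pseudocount of 1, 0.96 and 1.02 with posterior mean TPM, and 0.95 and 2.58 with detected members only, and complex IV had 1.91 without restricted isoforms. With Ndufa4 counted in complex IV, complexes I and IV had 0.78 and -0.23. Leaving out each library in turn gave 0.29 to 0.97 (I), 0.43 to 0.68 (III), -0.28 to 0.07 (IV) and 1.19 to 1.61 (V), and differences from complex V of -0.89 to -0.63 (I), -1.04 to -0.76 (III) and -1.78 to -1.12 (IV). It left 57 to 58 members detected, 21 to 26 with a noncoding main transcript and 7 to 8 pairs with the wide isoform higher in every library.

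Members detected numbered 71, 43 and 55 with a minimum of 5, of 20 and of 10 in each library. A noncoding main transcript was found in 33 of 73 members in the second quantification, beside 39.5% of protein-coding genes, and in 11 of 23 at a minimum of 50 counts, beside 31.1%. No paired analysis was possible because there is a single group. With 4384 to 5423 counts over 90 genes in a library, depth limits the low members most.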

Other observations

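Entries marked as pseudogenes, which the symbol rule leaves out, held few reads with 1 exception. The annotation has 9 such genes whose symbols start like those of members, with 75.1 counts between them on average. Only Ndufb1-ps reached 10 counts, with a mean of 73.7, beside 68.3 for the detected member Ndufs4. A pseudogene of their own name exists for 5 member symbols, and Ndufb1-ps is named after no member. It is annotated in GENCODE M21 as a noncoding gene at a bidirectional promoter, and it was singled out after its values were seen.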
